A study of Mus musculus with 17 samples.

Results

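Wild-type (WT) bone marrow-derived macrophages (BMDMs) were compared between 18 h and 1 h of lipopolysaccharide (LPS), using 3 lists of accessible chromatin peaks at 18 h and 2 at 1 h out of the 17 lists of the series. The lists came from ATAC-seq, in which the Tn5 transposase cuts open DNA and leaves sequencing adapters behind. Each list was cut to its best 24389 peaks by p-value, the number in the shortest list, and the peaks of all 17 lists were merged into 34158 consensus sites, each carried by 2 or more lists. Presence was counted as at 18 h only when all 3 WT lists at 18 h and neither WT list at 1 h had a peak at the site, and the reverse defined a site at 1 h only. Unless peaks of any rank are named, absence means that no peak lay among the best 24389. This gave 2611 sites at 18 h only, 7.64% of all consensus sites, and 1868 sites at 1 h only, 5.47% of all consensus sites. The counts and their balance depended on how presence was read, with 1073 late and 1074 early sites among the best 10000 peaks, 8433 and 582 with whole lists and 7547 and 404 where a peak had to cover 50% of the site. Without 1 h replicate 3 they were 4937 and 2922, and without 1 h replicate 1-2 they were 3382 and 3258.

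The BMDMs were grown for 7 days in L929-conditioned medium from bone marrow of male mice aged 6 to 12 weeks. They received 100 ng/ml LPS for 1 or 18 h, or none (0 h). The state of each site before LPS was read in 3 WT lists at 0 h. The WT mice carried an intact Nr4a1 gene, which encodes the nuclear receptor Nur77. In the knockout (KO) mice Nr4a1 was deleted in the whole body by crossing to C57Bl6/J mice with a Cre driven from the CMV promoter. Cre was then bred out, and the WT mice were littermates of the KO mice. The 6 KO lists at 1 and 18 h did not enter the rule that called a site late or early and served as a second reading, although their peaks helped to set the consensus sites. With consensus sites built from the 5 WT LPS lists alone there were 2651 sites at 18 h only and 1915 at 1 h only. Of the WT samples at 1 h, 1 is labelled replicate 1-2, and that name is kept.

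LPS binds Toll-like receptor 4 on the macrophage. Within the first hour the NF-kB and AP-1 transcription factors enter or are activated in the nucleus and act on chromatin prepared by the lineage factor PU.1 and by C/EBP factors. Cytokines and type I interferon made in this early wave then act on the same cells, and the later wave includes interferon-stimulated genes, which carry the interferon-stimulated response element (ISRE) bound by STAT and IRF proteins.

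A few sites that held a motif of these factors show the material behind the comparison. The runs below are 201 bases of GRCm38 around the summit, plus strand, with capitals for the motif matches on either strand. Sites inside exons were not used for them. The first pair belongs to sites at 18 h only that had no peak at 0 h, and the capitals mark the ISRE (TTTC and TTTC with any 2 bases between them) in an intron of Ifi47, an interferon-inducible GTPase, and the C/EBP motif (TTACNNAA or TTGCNNAA) in an intron of Scarb2, a lysosomal membrane protein. The Ifi47 site was taken from the interferon gene lists, and another late ISRE site, at the promoter of Ifit1bl1, ranked better (9622, 7221 and 12084).
Ifi47, chr11:49083180-49083380: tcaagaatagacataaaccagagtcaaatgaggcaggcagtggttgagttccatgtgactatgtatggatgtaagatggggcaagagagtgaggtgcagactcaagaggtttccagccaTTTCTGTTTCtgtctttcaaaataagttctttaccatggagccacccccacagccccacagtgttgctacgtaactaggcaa
Scarb2, chr5:92486806-92487006: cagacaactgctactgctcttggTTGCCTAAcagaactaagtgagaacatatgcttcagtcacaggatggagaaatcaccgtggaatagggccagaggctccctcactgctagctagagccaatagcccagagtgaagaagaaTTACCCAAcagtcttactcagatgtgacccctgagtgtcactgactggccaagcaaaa

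The other runs are from sites at 1 h only. Peli1, an E3 ubiquitin ligase of Toll-like receptor signalling, had a site with overlapping NF-kB matches 57097 bp from its start and no peak at 0 h. Pik3cg, the catalytic subunit of phosphoinositide 3-kinase gamma, had a site with an AP-1 match (TGACTCA or TGAGTCA) 59065 bp from its start and no peak at 0 h either. Of the sites assigned to Pik3cg, 3 were at 18 h only and 2 at 1 h only, the nearest pair 4137 bp apart.
Peli1, chr11:21034094-21034294: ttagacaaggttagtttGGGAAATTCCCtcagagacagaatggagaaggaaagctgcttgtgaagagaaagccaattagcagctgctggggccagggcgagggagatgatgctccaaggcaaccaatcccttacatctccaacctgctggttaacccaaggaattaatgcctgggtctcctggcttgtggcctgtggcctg
Pik3cg, chr12:32146821-32147021: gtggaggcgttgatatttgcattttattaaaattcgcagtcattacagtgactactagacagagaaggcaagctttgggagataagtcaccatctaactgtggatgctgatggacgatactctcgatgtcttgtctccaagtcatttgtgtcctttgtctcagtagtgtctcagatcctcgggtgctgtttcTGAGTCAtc

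Depth separated the WT times. It was recovered from the fold and p-value columns as an index of background reads per kb and was 0.382 and 1.61 at 1 h against 4.62 to 8.38 at 18 h, with 5.11 to 9.75 at 0 h. The median width of the best 24389 peaks was 338 and 616 bp at 1 h and 829 to 1210 bp at 18 h. In WT, depth, peak width and time cannot be told apart, which is why peaks were compared by rank in lists of equal number. The KO lists differed less in depth, at 0.593 to 4.14 at 1 h and 1.10 to 1.76 at 18 h. Their median widths were 541 to 852 bp at 1 h and 168 to 616 bp at 18 h. Of 8 macrophage markers, 7 and 8 had a promoter peak at 1 h and 6 to 7 at 18 h, and Adgre1, Itgam, Fcgr1, Spi1 and Cd14 had one in all 8 WT lists. None of 5 erythroid markers had one. The 8 T cell markers gave 1 promoter peak in every WT list, at Cd3d, and the defining genes Cd3e, Cd4 and Cd8a had none. The 6 B cell markers gave 1 in each LPS list, at Ms4a1, and 0 in each list at 0 h. The 8 neutrophil markers gave 1 at 0 and 1 h and 2 at 18 h. The 5 dendritic cell markers gave 0 or 1, at Zbtb46, and the 6 fibroblast markers 1 in every WT list, at Col1a1. Pax5, Elane, Mpo, Flt3 and Pdgfra had none. In a bulk sample, fewer cells with an open site and a less open site per cell cannot be told apart.

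Sites specific to a time were mostly in the weaker part of the lists and away from promoters. The worst of a site's ranks among the lists that carried it had a median of 20099 at 18 h only and 18707 at 1 h only, where 24389 is the last rank kept. Just inside the limit, 363 sites at 18 h only and 206 at 1 h only had their worst rank within the last 1000. Just outside the rule, 3097 sites were in all 3 lists at 18 h and 1 of 2 at 1 h, 1450 were in 2 of 3 lists at 18 h and neither at 1 h, and 2444 sites were in 1 of 2 lists at 1 h and none at 18 h. When presence within the best 12194 ranks was required, 154 sites at 18 h only and 276 at 1 h only were left. By comparison, 14875 sites (43.5%) were present in all 5 WT LPS lists.

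The limit on peak number set much of what counted as absent. In the whole deposited lists, 1026 of the 2611 sites at 18 h only had no peak of any rank at 1 h, and 291 of the 1868 sites at 1 h only had none at 18 h. The counts also hung on the small 1 h group. Leaving out WT 1 h replicate 3 gave 4937 sites at 18 h only and 2922 at 1 h only, and leaving out replicate 1-2 gave 3258 at 1 h only.

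Both kinds of site were distal. A summit lay within 1 kb of a protein-coding start site at 12.1% of sites at 18 h only and at 8.67% of sites at 1 h only, against 30.2% of all consensus sites and 52.6% of the sites in all 5 WT LPS lists. Introns held 44.4% of the sites at 18 h only and 44.7% of those at 1 h only, against 34.2% of all sites. The median distance to a start site was 14273 bp at 18 h only and 17998 bp at 1 h only, against 8318 bp over all sites.

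The state at 0 h divided the sites further. Of the sites at 18 h only, 987 (37.8%, 95% Wilson interval 35.96 to 39.7) had a peak in none of the 3 WT lists at 0 h and 1212 (46.4%, 44.5 to 48.3) had one in all 3. The larger group of late sites was thus among the best peaks before LPS, not at 1 h, and again at 18 h. In WT 1 h replicate 3, 72.9% of these 1212 sites had a peak of any rank, and 329 had none in either 1 h list. The WT lists at 0 and 18 h were the deeper ones, so depth and time cannot be told apart for this pattern. Of the sites at 1 h only, 1051 (56.3%, 54.0 to 58.5) had no peak at 0 h and 552 (29.6%, 27.5 to 31.7) had one in all 3. Another 176 late and 140 early sites were in 1 of the 3 lists, and 236 late and 125 early sites were in 2. Absence at 0 h was again a matter of rank, since with peaks of any rank counted, 101 late sites (3.87%) and 196 early sites (10.5%) had none in any 0 h list.

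**Figure D1:**
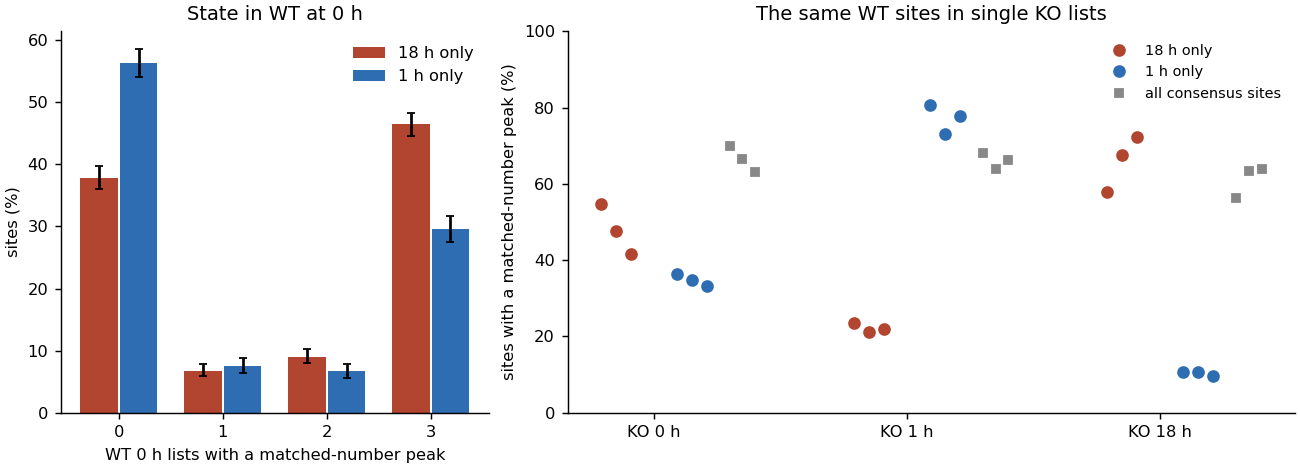
Left, share of the 2611 sites at 18 h only and the 1868 sites at 1 h only (y, percent of sites, with 95% Wilson intervals) by how many of the 3 WT 0 h lists carried a matched-number peak (x). Right, percent of the same sites with a matched-number peak in each KO list, 1 point per list, with all consensus sites in grey, so that sites at 18 h only sit between 57.9% and 72.4% in KO at 18 h and between 21.1% and 23.6% in KO at 1 h.

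The 6 best-ranked late sites without a peak at 0 h lay near Ifit3 (2 sites), Pigk, Scarb2, Slc28a2 and Pdcd1lg2. A site at chr19:34572578-34579779, nearest to the start of Ifit3, ranked 2648, 3014 and 1816 in the 18 h lists. It had no peak of any rank in the 1 h or 0 h lists of WT, and in KO it was in all 3 lists at 18 h and none at 1 h or 0 h. Ifit proteins bind viral RNA and are among the most strongly interferon-induced. A neighbouring site at chr19:34569349-34570929, inside an exon of Ifit2 and holding an ISRE, ranked 5820, 5142 and 5394, and its only peak at 1 h in WT was at rank 28143 in replicate 3.

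An intron site of Pigk, a subunit of the enzyme that attaches GPI anchors, ranked 7713, 5526 and 6077. The Scarb2 intron site shown above ranked 7331, 5770 and 6846, and WT 1 h replicate 3 had a peak there at rank 24479, just outside the best 24389. Its KO readings were less clean, with 2 of 3 lists at 1 h as well as all 3 at 18 h. Slc28a2, a nucleoside transporter, had an intron site with C/EBP and PU.1 (GAGGAAGT) matches at ranks 8436, 6597 and 6701. Pdcd1lg2, which encodes the PD-1 ligand PD-L2, had a site 21644 bp from its start at ranks 7938, 8584 and 6550, and KO lists carried it at 18 h in 3 of 3 and at 1 h in none.

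Late sites that were already present at 0 h ranked higher at 18 h than at 0 h among the best 6, which were picked for their rank at 18 h. The first was a site in an intron of Chl1, a neural adhesion molecule, at chr6:103649070-103649292. It ranked 3829, 2607 and 1241 at 18 h and 13295, 8282 and 12254 at 0 h, with no peak at any rank at 1 h. In KO all 3 lists at 1 h carried it. A site near Zfp503, a zinc finger gene, ranked 3924, 5061 and 3877 at 18 h and 12556 to 14111 at 0 h, and KO lists carried it at 0 and 18 h in 3 of 3 and at 1 h in none. An intron site of Tmed8, assigned to Gstz1 by distance, and a site near Rnf112 were likewise in all 3 KO lists at 18 h and none at 1 h. The promoter site of Tmem140, 227 bp from its start, was in all 9 KO lists. The remaining site, at chr17:84061289-84062607, had no gene start within 100 kb, held a PU.1 match and ranked 4221, 3809 and 3715 at 18 h.

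Early sites with no peak at 0 h were led by Peli1. Its site ranked 2321 and 1177 at 1 h, was weak but present in the whole lists at 18 h (27245, 36000 and 35234) and was in all 3 KO lists at 1 h. Gpr107, a membrane protein gene, had an intron site with an NF-kB match at 1663 and 2948. Ehd1, an endocytic recycling protein, had a site 2750 bp from its start at ranks 2814 and 3469. The Pik3cg site shown above, with its AP-1 match, ranked 2795 and 4233. Zbtb32, a zinc finger repressor, had an intron site with an AP-1 match too, at 2394 and 4696. A site near Hs1bp3 with an NF-kB match ranked 4371 and 3548. All 6 were in all 3 KO lists at 1 h, and in KO at 18 h they were in 0 lists, apart from Peli1 in 1 and Zbtb32 in 2. At 0 h the Peli1 site was in 3 of 3 KO lists and the Gpr107 site in 2, unlike in WT.

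Early sites that were among the best peaks at 0 h and not at 18 h included one with no start within 100 kb, chr10:67717226-67718284, with AP-1 and C/EBP matches. It ranked 1112 and 1996 at 1 h, 10644, 10576 and 13287 at 0 h, and 33534, 27019 and 26991 in the whole lists at 18 h. Intron sites of Strip2 and Flnc, which encodes an actin-binding filamin, ranked 1560 and 2874 and 2929 and 3037. An intron site of Gm49337 with an AP-1 match ranked 1912 and 3298. An intron site of Anxa2, a membrane-binding annexin, held an NF-kB match and ranked 1863 and 3417. These 5 sites were in every KO list at 0 and 1 h.

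**Figure D2:**
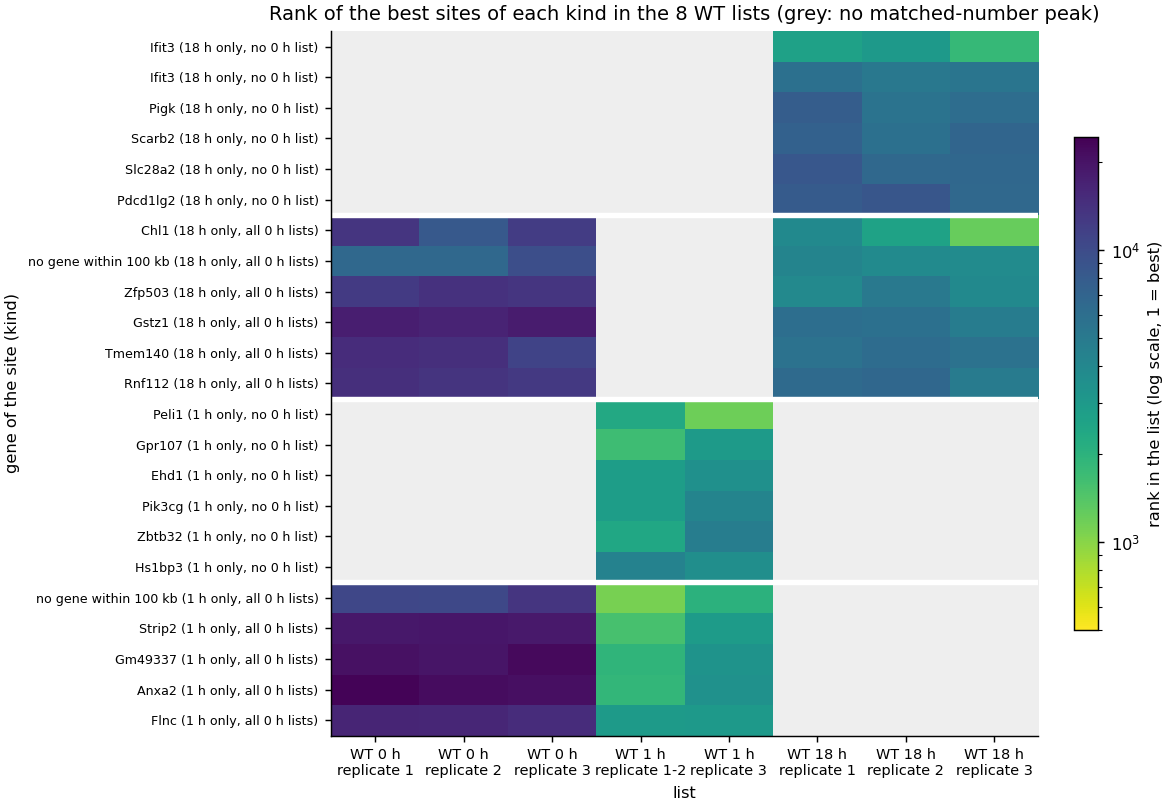
Rank of the best sites of each of the 4 kinds (rows, by nearest gene, 6 sites or, for sites at 1 h only that were in all 0 h lists, 5) in the 8 WT lists (columns), on a log colour scale on which 1 is best and grey is no matched-number peak. The Ifit3 site at ranks 2648, 3014 and 1816 was the best of the sites at 18 h only without a peak at 0 h, and the Peli1 site ranked 2321 and 1177 at 1 h.

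The 4 kinds of site differed in the motifs within 100 bp of their summits. Sites at 18 h only without a peak at 0 h held a C/EBP match at 32.4% (95% Wilson interval 29.6 to 35.4, n = 987), against 17.1% of all consensus sites. They held an ISRE at 9.02% (7.39 to 10.97), against 3.74%. AP-1 and NF-kB matches were at 14.8% and 5.37% of them, against 16.3% and 5.11% of all sites. The intervals count sites only, and neighbouring sites are not independent.

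Late sites that had been present at 0 h had other motif shares. C/EBP matches were at 23.3% (21.0 to 25.7, n = 1212) and PU.1 matches at 12.2% (10.5 to 14.2), against 7.68% of all sites. AP-1 was at 10.5% and NF-kB at 1.57%, both below their shares of all sites. The ISRE was at 3.38%, near its share of all sites.

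Early sites held AP-1 whatever their state at 0 h, but NF-kB mainly where there was no peak at 0 h. AP-1 matches were at 28.6% (26.0 to 31.4, n = 1051) of sites without a peak at 0 h and 29.7% (26.05 to 33.7, n = 552) of those present in all 3 lists. NF-kB matches were at 15.2% (13.2 to 17.5) and 3.62% (2.36 to 5.53). C/EBP matches were at 16.0% and 11.2%. An AP-1 and an NF-kB match occurred together at 3.04% of the early sites without a peak at 0 h and at 0.814% of all sites.

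Most of these sites were away from promoters, and comparison with other distal sites changed some of the shares. Among sites over 1 kb from a start site, C/EBP was at 32.9% of the late sites without a peak at 0 h against 21.0% of all such sites, and the ISRE at 8.41% against 4.42%. AP-1 was at 15.5% of these late sites against 21.7%, and NF-kB and PU.1, which stood slightly above their shares of all sites, were below them among distal sites, at 5.28% against 5.46% and 7.97% against 9.67%. NF-kB was at 15.4% of the early sites without a peak at 0 h against 5.46%, and AP-1 at 29.1% against 21.7%. CTCF and the Nur77 monomer element NBRE (AAAGGTCA) were rare, at 0.304% and 1.22% of the late sites without a peak at 0 h and 0.856% and 2.47% of the early ones, against 2.78% and 1.03% of all sites. None of the 7 motifs was found at 44.4% and 41.1% of these sites. A match is a run of letters, not a bound factor.

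**Figure D3:**
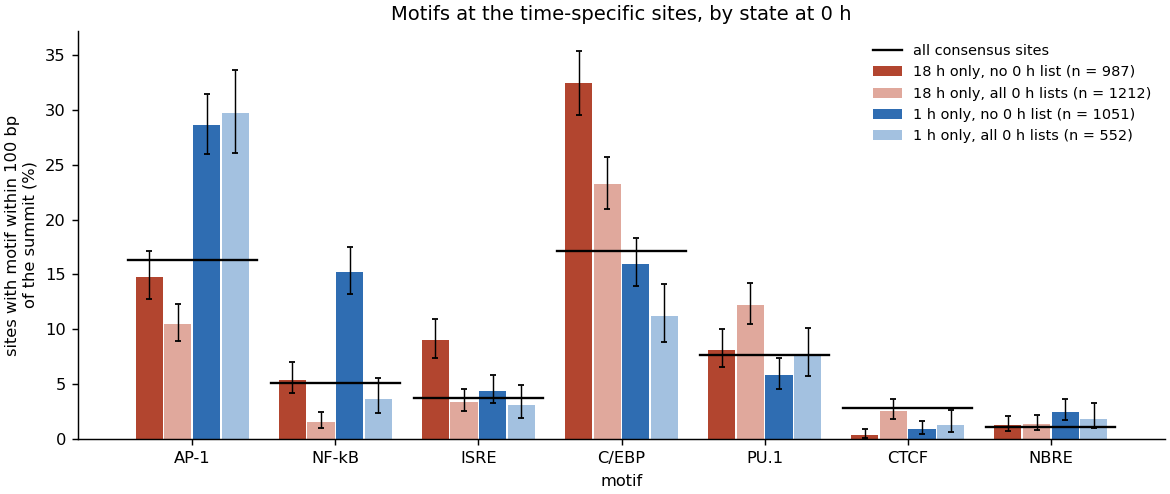
Share of sites with each of 7 motifs within 100 bp of the summit (y, percent, with 95% Wilson intervals) for the 4 kinds of site, with a black line at the share of all 34158 consensus sites. C/EBP stands at 32.4% in sites at 18 h only without a peak at 0 h, and NF-kB at 15.2% in sites at 1 h only without one.

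Motif shares of whole lists did not depend on choosing sites. The share of the 24389 best peaks with a C/EBP match was 17.2%, 17.4% and 17.4% at 18 h in WT, 14.4% and 14.8% at 1 h and 14.6% to 15.0% at 0 h. The 18 h lists thus stood above all others in WT. The mean difference of 18 h minus 1 h was 2.79 percentage points in WT and 2.22 with KO included, and the latter passed a two-sided exact permutation test within genotype (adjusted p = 0.0175 over 7 motifs, smallest possible raw p 0.005). In WT alone the test cannot go below 0.1, which it reached.

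NF-kB moved the other way. Its share was 5.89% and 6.33% at 1 h, 4.73% to 4.90% at 18 h and 3.54% to 3.67% at 0 h in WT, with no overlap between times, so 18 h stood between 0 and 1 h. The difference of 18 h minus 1 h was -1.30 percentage points in WT and -1.44 over both genotypes (exact permutation test, adjusted p = 0.0175). AP-1 was at 15.9% and 18.2% at 1 h and 14.5% to 14.9% at 18 h, close to the 14.4% to 14.7% at 0 h. Its difference was -2.31 in WT and -2.65 over both genotypes (exact permutation test, adjusted p = 0.0233). In KO alone the AP-1 shares overlapped, at 16.3% to 18.6% at 1 h and 12.4% to 16.8% at 18 h (exact permutation p = 0.2). The WT value rested on which 1 h list was used, at -1.18 without replicate 3 and -3.44 without replicate 1-2.

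The other motifs did not pass. The ISRE was at 3.399% and 3.58% at 1 h and 3.64% to 3.85% at 18 h in WT, and at 2.71% to 2.96% at 0 h. Its difference was 0.263 points in WT and 0.0543 over both genotypes (exact permutation test, adjusted p = 0.71). PU.1 differed by 0.732 over both genotypes (adjusted p = 0.084), NBRE by -0.0967 (adjusted p = 0.0525) and CTCF by -0.110 (adjusted p = 0.554), all by the same exact test. Promoter peaks were 38.7% and 40.4% of the lists at 1 h and 38.6% to 38.9% at 18 h in WT (difference -0.762 in WT and -0.146 over both genotypes, exact permutation p = 0.3 and 0.75). The WT promoter difference turned to 6.61 among the best 10000 peaks and was -11.8 with whole lists. Responses of KO and WT were not shown to differ for any of the 7 motifs or for promoters (lowest adjusted p = 0.187 over these 8 measures, exact permutation test with genotype exchanged within time).

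Some of these values depended on how deep the lists were read. Among the best 10000 peaks the WT difference in C/EBP was 0.323 points and that over both genotypes 0.700 (exact permutation test, adjusted p = 0.0437), while NF-kB and AP-1 kept their direction. With matches sought within 50 bp of the summit the C/EBP and AP-1 differences over both genotypes no longer passed (exact permutation test, adjusted p = 0.07 and 0.133). Leaving out any 1 WT 18 h list gave an adjusted p of 0.0583 for C/EBP and NF-kB by the exact permutation test, whose smallest raw p is then 0.0167, and 0.0778 for AP-1. AP-1 also no longer passed without WT 1 h replicate 3 (exact permutation test, adjusted p = 0.0583) or without KO 1 h replicate 1 or 3 (0.07 each). In the other direction, PU.1 passed without KO 18 h replicate 2 (0.035), CTCF without WT 1 h replicate 1-2 (0.0437), and NBRE without KO 1 h replicate 3 (0.0467) or KO 18 h replicate 2 (0.042) or 3 (0.035).

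**Figure D4:**
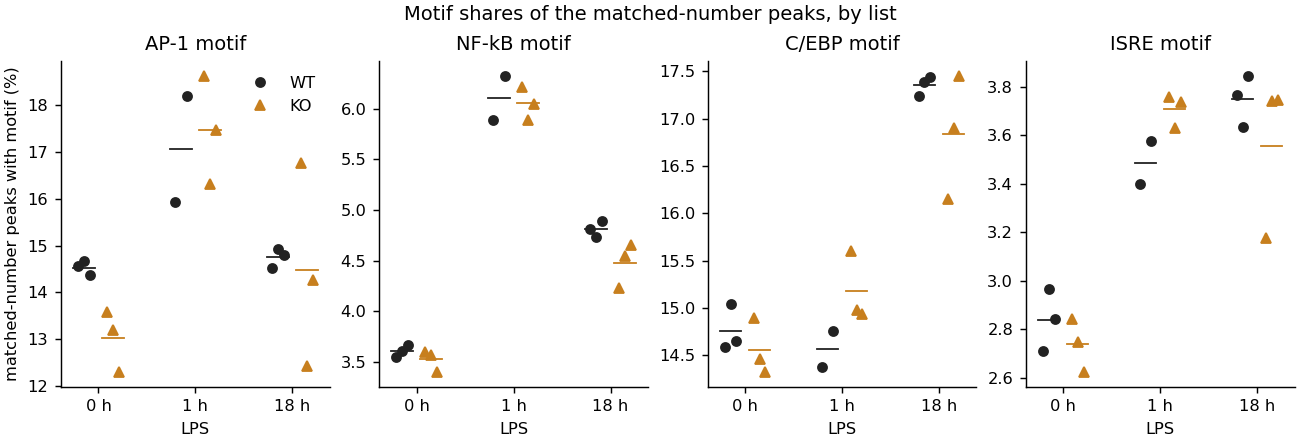
Share of the 24389 best peaks of each list with an AP-1, NF-kB, C/EBP or ISRE match (y, percent, each panel on its own scale that does not start at 0), by LPS time (x), 1 point per list and a line at the mean, circles for WT and triangles for KO. WT C/EBP shares sit at 17.2% to 17.4% at 18 h against 14.4% and 14.8% at 1 h.

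Genes were read as the nearest protein-coding start site within 100 kb. Of 13023 genes with a consensus site, 2010 (15.4%) had a site at 18 h only and 1371 (10.5%) had a site at 1 h only, and 280 had both. In the lists of genes below, shares of consensus sites are read against 7.64% late and 5.47% early over all sites. No test was run on a list.

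Interferon genes had late sites. Of 68 sites near 28 interferon-stimulated antiviral genes, 13 (19.1%) were at 18 h only and 2 (2.94%) at 1 h only. Besides Ifit3 with 3 and Ifit2 with 1, there was a late site at Ifit1, which had no peak of any rank in the 0 h lists. The Ifit1 site ranked 14079, 12434 and 14009 at 18 h. The promoter of Oas1a, which makes the 2-5A signal against viral RNA, was open at ranks 11953, 14814 and 12109. A late site in an intron of Sult6b1, assigned by distance to Eif2ak2, the kinase that blocks translation on double-stranded RNA, was present at 0 h at ranks 21093 to 23323 and ranked 9395 to 13009 at 18 h.

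Interferon-inducible GTPases, which attack vacuoles of intracellular microbes, also had late sites. Of 38 sites near 14 of them, 8 (21.1%) were at 18 h only and 0 at 1 h only. Ifi47 had an intron site with an ISRE, shown above, at ranks 13236, 11489 and 12874 and a promoter site at 17540, 15341 and 18322. The promoter of Tgtp2 was at 16932, 16233 and 17854 and had no peak at any rank in the WT 0 h lists. Gbp3, Gbp5, Irgm1 and Irgm2 each had a late site without a peak at 0 h. Genes of these families share sequence, so peaks near them depend on how reads that map to several copies were treated.

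Cytokine and chemokine genes had early sites. Of 128 sites near 29 of them, 21 (16.4%) were at 1 h only and 5 (3.91%) at 18 h only. The promoter of Cxcl1, a neutrophil chemoattractant, ranked 5082 and 11670 at 1 h and had no peak of any rank at 0 h, but no KO list at 1 h carried it. The promoter of Il1b, encoding interleukin-1 beta, ranked 7281 and 7894 and was in all 3 KO lists at 1 h. Il12b, the p40 subunit of interleukins 12 and 23, had an early site 26979 bp from its start at 4912 and 6952 and a late site 14886 bp from it at 12445, 13771 and 18617. Il10, an anti-inflammatory cytokine, had 3 early sites, the best at 1924 and 5841, and a late site with a C/EBP match at 18219, 16958 and 19588 that had no peak at any rank at 0 h.

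NF-kB subunits and their brakes stood on the early side too. Of 129 sites near 24 genes, 18 (14.0%) were at 1 h only and 5 (3.88%) at 18 h only. Nfkb1, which encodes the p105 precursor of p50, had 5 early sites and no late one, the best an intron site with an NF-kB match at ranks 5707 and 5036 with no peak at any rank at 0 h. Tnfaip3, the A20 brake on NF-kB signalling, had 3, the best with an AP-1 match at 4694 and 6104. Zc3h12a, the RNase Regnase-1, had an early site at 7264 and 9591 and 2 late ones. Immediate-early factors were near the background in both directions, with 8 (5.80%) early and 7 (5.07%) late of 138 sites, and the promoter of Myc was among the early ones at ranks 11801 and 8335. The Myc promoter was already at ranks 7674, 8742 and 6466 at 0 h, so it was a site of 0 and 1 h that was not among the best 24389 peaks at 18 h.

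Metabolic genes were near the background and lipid genes had a higher late share. Among genes of itaconate, nitric oxide, glycolysis and prostaglandins, 10 (9.17%) of 109 sites were late and 4 (3.67%) early, against 7.64% and 5.47% of all sites. Nos2, the inducible nitric oxide synthase, had 2 late sites without a peak at 0 h, the better an intron site at 12897, 7597 and 9819. Ptgs2, which makes prostaglandin H2, and Pfkfb3, an activator of glycolysis, had 1 late site each, and the hexokinase gene Hk2 and the hypoxia factor Hif1a had early ones. Among lipid and cholesterol genes, 14 (12.6%) of 111 sites were late and 4 (3.604%) early. Abca1, the cholesterol exporter, had 2 late intron sites without a peak at 0 h, the better with a PU.1 match at 11095, 9505 and 11453. Ch25h, which makes 25-hydroxycholesterol, had 3 late sites and 1 early site, the nearest pair 5949 bp apart.

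Antigen presentation and migration genes had shares above the background in both directions, and scavenger receptors and metalloproteinases mainly on the early side. These lists are small, so few sites separate their shares from the background, and this was not tested. Antigen presentation and costimulation had 8 (11.9%) late and 7 (10.4%) early of 67 sites, with Pdcd1lg2 late at 3 sites and Cd83, Cd80 and Cd40 early. Migration and adhesion genes had 11 (10.6%) of each among 104 sites, including Cd44 and Itga4 with both. Scavenger and efferocytosis receptors had 5 (7.58%) late and 8 (12.1%) early of 66 sites, 4 of the early ones at the integrin gene Itgav. Metalloproteinases, serpins and matrix genes had 5 (9.43%) late and 7 (13.2%) early of 53 sites, with the promoter of Spp1, which encodes osteopontin, among the early ones.

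Lineage factors of macrophages had 12 (7.06%) late and 8 (4.71%) early of 170 sites. Tfeb, a regulator of lysosome genes, had the best late site among them at 7555, 9477 and 6985, and Cebpb, which encodes a C/EBP factor, had 2 late sites. Toll-like receptor and LPS signalling genes had 2 (2.38%) late and 1 (1.19%) early of 84 sites, and cell cycle and replication genes had 1 (1.54%) late and 2 (3.08%) early of 65 sites. These shares were below the background in each direction but rest on few sites, and this was not tested.

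**Figure D5:**
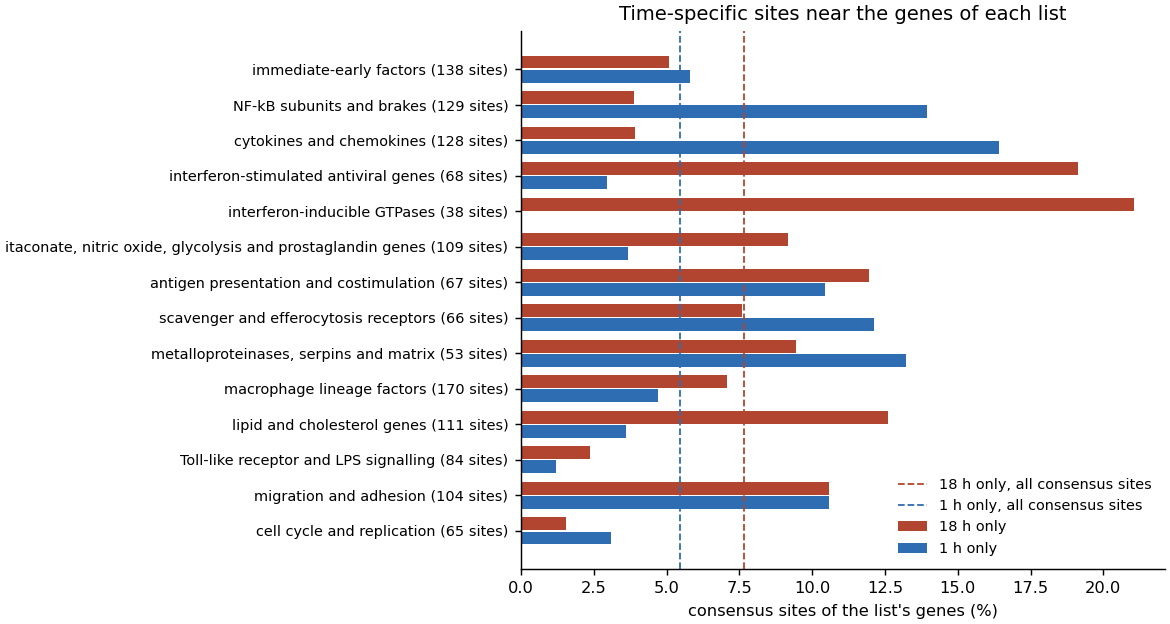
Share of the consensus sites near the genes of each of 14 lists (x, percent) that were at 18 h only or at 1 h only, with dashed lines at the shares of all consensus sites, 7.64% and 5.47%. Interferon-inducible GTPases reach 21.1% late and 0% early, and cytokines and chemokines 3.91% late and 16.4% early.

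Several genes outside these lists gathered sites. At 18 h, Rere, Prex1, Plxna1 and Itpr2 had 5 sites each among 15 or 16 consensus sites, and Prex1 also had 1 site at 1 h only. Rere is a nuclear corepressor, Prex1 an activator of Rac, Plxna1 a semaphorin receptor and Itpr2 a calcium channel of the endoplasmic reticulum. All 5 Rere sites were in all 3 WT lists at 0 h. Fam49b, Zfp36l2, Mrtfa, Syt2 and Tpd52 had 4 each among 8 to 16 consensus sites, and Zfp36l2 encodes a protein that destabilises mRNA. Mrtfa and Tpd52 each also had 1 site at 1 h only. The 4 sites assigned to Syt2, which encodes a synaptotagmin, had no peak at 0 h, and 3 of them lie in introns of Ppp1r12b.

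At 1 h, Slc1a2, a glutamate transporter gene, had the most with 7 sites among 14, all without a peak at 0 h. Of these, 1 lies in an exon of Cd44, and a nearest start site does not show which gene a site serves. Oaf had 4 of its 4 consensus sites at 1 h only, the best at ranks 3915 and 2579. Anxa2, Hs1bp3, Med13l, Sik3, Hipk2 and Lrrfip1 had 4 each among 8 to 16 consensus sites. Slc1a2 and Sik3 each also had 1 site at 18 h only. Of the 4 sites of Sik3, a salt-inducible kinase, 3 held an AP-1 match. Where a gene had sites of both directions, the nearest late and early summits were a median of 21163 bp apart over 280 genes.

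Sites present at both times could be tested for a difference between the lists, though depth, peak width and time cannot be told apart in WT here either. Over 18519 consensus sites with a deposited peak in all 5 WT LPS lists, normal scores of a site's order among these sites in each list were fitted with limma, and 2251 sites (12.2%) were higher and 2429 (13.1%) lower at 18 h at an adjusted p under 0.05. The scores are in standard deviations of the rank distribution, and the median difference of all sites was 0.06. None of the 2611 sites at 18 h only could enter this fit, because the shorter 1 h list has no peak beyond rank 24389, and 936 sites at 1 h only did, which the same contrast had already chosen. Over the 14875 sites present in all 5 lists cut to 24389 peaks, which hold no late or early site, 1628 (10.9%) were higher and 1710 (11.5%) lower, and the shares of motifs and gene lists are given for these sites. AP-1 was at 28.6% of the sites that were lower at 18 h and 7.00% of those that were higher, against 14.3% of all 14875. NF-kB was at 10.3%, 2.89% and 5.73%, and C/EBP at 15.7%, 16.0% and 13.7%. Promoters were 23.2%, 59.3% and 52.6% of these sites. Outside promoters, AP-1 was at 34.0% of the lower and 14.8% of the higher sites against 26.3% of all, and C/EBP at 17.1% and 27.0% against 20.6%.

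Several sites with large called differences lay near named genes, with ranks given in the whole lists, which differ in length. The promoter site of Tbc1d10a, a Rab GTPase-activating protein, had ranks of 23134 and 39055 at 1 h and 9380, 9514 and 7181 at 18 h (difference 2.46, SE 0.29, limma adjusted p = 0.00071). Saa1, a serum amyloid gene, had a site with a C/EBP match at 23172 and 28197 at 1 h and 6554, 7167 and 9140 at 18 h (2.12, SE 0.22, limma adjusted p = 0.00049). P2ry6, the UDP receptor, had an intron site at 23072 and 7207 at 1 h, far apart, and 1526, 1670 and 2023 at 18 h (2.14, SE 0.48, limma adjusted p = 0.012). At the other end, a site near Ramp3 with an AP-1 match ranked 220 and 233 at 1 h and 22053, 25719 and 21537 at 18 h (-3.35, SE 0.18, limma adjusted p = 3.3e-05). Of these 4 sites, P2ry6 alone was within the best 24389 peaks of every list, so the others have no value in the fit on lists of equal number.

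The gene lists are read against 10.9% higher and 11.5% lower over the 14875 sites. Sites of cytokines and chemokines were lower at 18 h at 28 of 60 (46.7%) and higher at 1 (1.67%), with a median difference of -0.72. Sites of NF-kB subunits and brakes were lower at 18 of 60 (30.0%) and higher at 2. Lower sites were also frequent in other lists, at 6 of 19 (31.6%) for metalloproteinases, serpins and matrix, 14 of 49 (28.6%) for migration and adhesion, 19 of 72 (26.4%) for immediate-early factors and 17 of 74 (23.0%) for macrophage lineage factors. Toll-like receptor and LPS signalling genes had 8 of 49 (16.3%) lower and 1 (2.04%) higher, and lipid and cholesterol genes had 9 of 47 (19.1%) in each direction, unlike their shares of sites at 18 h only and at 1 h only. Scavenger and efferocytosis receptors had 2 of 24 in each direction, and cell cycle and replication genes had 5 of 33 (15.2%) higher and 3 (9.09%) lower. Antigen presentation and costimulation had 4 of 23 (17.4%) lower and 3 (13.0%) higher. Sites of interferon-stimulated antiviral genes were higher at 15 of 36 (41.7%) and lower at 0, with a median of 0.50. The interferon-inducible GTPases had 2 of 12 higher and 0 lower. Genes of itaconate, nitric oxide, glycolysis and prostaglandins had 9 of 48 (18.8%) higher and 6 (12.5%) lower, with a median of -0.15. Over the 18519 sites, the number of calls and their balance depended on single lists. Against 2251 higher and 2429 lower with all 5 lists, there were 580 and 1112 without 18 h replicate 1, 614 and 1132 without replicate 2 and 741 and 1283 without replicate 3. Without 1 h replicate 1-2 there were 3842 and 3313, and without 1 h replicate 3 there were 4905 and 4324, with more higher than lower sites.

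The KO lists, which did not enter the rule for late and early sites, carried more late sites at 18 h and more early sites at 1 h. Of the sites at 18 h only, 57.9%, 67.6% and 72.4% had a peak among the best 24389 in KO at 18 h and 23.6%, 21.1% and 21.8% in KO at 1 h (difference 43.8 points, two-sided exact permutation p = 0.1, the smallest that 3 against 3 allows). Of the sites at 1 h only, 80.7%, 73.0% and 77.7% had one in KO at 1 h and 10.5%, 10.5% and 9.58% in KO at 18 h (difference -66.9 points, exact permutation p = 0.1). Over all consensus sites the share was 63.8% to 68.0% at 1 h and 56.3% to 64.0% at 18 h. With peaks of any rank in KO counted, the late difference was 10.9 points (exact permutation p = 0.6) and the early one -72.0 (exact permutation p = 0.1). With at least 50% of the site covered, the late difference was 6.54 points (exact permutation p = 0.5). Depths of the KO lists at 1 and 18 h overlapped, but their lengths did not, at 36351 to 70843 intervals at 1 h and 29568 to 36136 at 18 h. How list length and peak width bear on these differences was not tested.

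The 4 kinds of site could be read in KO as well. Late sites without a peak in WT at 0 h had one in KO at 0 h at 4.96% to 9.32%, at 1 h at 9.63% to 11.8% and at 18 h at 54.5% to 72.5%. For late sites present in all 3 WT lists at 0 h, these shares were 69.9% to 95.5%, 30.3% to 37.2% and 60.3% to 74.3%. Early sites without a peak in WT at 0 h had one in KO at 70.1% to 76.1% at 1 h and 6.37% to 8.18% at 18 h. For early sites present in all 3 WT lists at 0 h, these shares were 80.1% to 90.2% and 13.6% to 14.1%. Read by the same all-or-none rule in KO alone, 488 of the sites at 18 h only (18.7%) were at 18 h only in KO and 4 were at 1 h only, and 825 of the sites at 1 h only (44.2%) were at 1 h only in KO and 0 at 18 h only. Over all consensus sites, 2.42% were at 18 h only and 4.9% at 1 h only by this rule in KO. In the rank score fit of KO, 440 of 16179 sites were higher and 607 lower at 18 h, and these 1047 calls became 2370 without KO 18 h replicate 1, 410 without KO 18 h replicate 3 and 234, 174 or 192 without KO 1 h replicate 1, 2 or 3. Of 3356 sites called in WT and tested in KO, 2916 (86.9%) had the same direction, against 67.6% of all 13721 sites tested in both. All 627 sites called in both had the same direction. WT and KO share no sample in these fits.

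Nr4a1 itself had 6 consensus sites nearest to its start. Its promoter site, 91 bp from a start and with an NF-kB match, ranked 7226 and 5348 in WT at 1 h and 34781, 25975 and 23412 in the whole lists at 18 h (difference -1.91, SE 0.29, limma adjusted p = 0.0022). An intron site of the gene ranked 3315 and 4973 at 1 h and 10085 to 12169 at 18 h (-0.89, SE 0.18, limma adjusted p = 0.007). A site 10123 bp away was higher at 18 h (0.70, SE 0.20, limma adjusted p = 0.0298). The KO lists carried the promoter site at 0 and 1 h in 3 of 3 and at 18 h in none, so peaks at this promoter do not check the deletion. No consensus site had Igsf3, an immunoglobulin superfamily gene, as its nearest gene.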

How the data were processed

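ATAC-seq peak lists of WT BMDMs at 1 and 18 h of LPS were analysed, with WT lists at 0 h and KO lists as further readings. The submitters' processing notes name cutadapt 2.6, DiffBind 3.0.15 and mm10, and the peak names carry a mapping quality of 20 and a q-value of 0.001. The authors called peaks in each sample. The deposited fold column is a ratio of pileup to background, and the deposited p-value and q-value columns are −log10 values. The lists hold no counts over shared sites, so a count test as in DiffBind was not made.

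Identical intervals were reduced to the entry with the best −log10 p-value (1001519 entries, 808470 intervals; 1 entry lacked a summit). Peaks were ordered within a list by that value, with ties at rank 24389 broken at random (seed 1); at most 13.9% of a list lay in such a tie. Consensus sites needed 1 bp of overlap and 2 lists, and took the summit of their best-ranked peak. Motif letters were searched for in GRCm38 (RefSeq) on either strand, up to 100 bp from the summit; NF-kB and CTCF used their usual consensus. Start sites are from GENCODE vM21. The depth index is the lowest background level divided by the width of the shortest peak, the scale on which pileups came out as whole reads.

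Motif and promoter shares were compared by two-sided exact permutation tests over lists within genotype (200 regroupings, 10 in WT alone), with Benjamini-Hochberg adjustment over 7 motifs, or over these and promoters (8 measures) for the comparison of genotypes. Rank scores were fitted with limma 3.58.1 (R 4.3.3) with a mean-variance trend. On scores simulated for the 18519 sites of the WT fit, 54 of 100 changes of size 1 and 97 of 100 of size 2 were recovered, with 8 false calls. The simulated noise was independent and equal in spread across lists, without differences of depth or width. False calls in the real fit were therefore not measured. Motif and gene list shares in the rank fit were taken over the 14875 sites with a peak in all 5 cut lists, a choice made after seeing the data. Python 3.11.15, numpy 2.4.6, scipy 1.17.1 and pandas 2.3.3 were used.

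The sites, the 14 gene lists and the marker lists were chosen with earlier results of these data known. The rule for names took the 6 sites of each kind with the best mean rank, the 10 genes per direction with most sites, up to 8 genes per gene list by number of sites and then rank, the 10 sites per direction with the largest called score change, and Nr4a1 and Igsf3; a selection of these is given, some items are not reported here, and the other genes named in the lists were chosen after their values were seen. The labels do not say whether samples of a group came from separate animals, so p-values measure the spread between these samples, which may be technical. Depth could not be given as reads per library, and intervals cover counting error only.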

Additional observations from a re-analysis of the deposited data

How the results depend on the processing

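Of the 2611 sites at 18 h only and 1868 at 1 h only, the best 10000 peaks gave 1073 and 1074, whole lists 8433 and 582, absence from whole lists 1026 and 291, and coverage of 50% of the site 7547 and 404. Chosen after seeing the data, presence within the best 12194 ranks gave 154 and 276, and KO lists in place of WT lists gave 828 late sites. Leaving out 1 list gave 2908 to 4937 and 2003 to 3258. The share with no peak at 0 h was 3.87% and 10.5% with peaks of any rank, and 39.3% to 41.1% and 58.7% to 58.9% without 1 list at 0 h. The KO differences became 10.9 and -72.0 with whole KO lists, and 6.54 and -57.5 with coverage of 50%.

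Among the best 10000 peaks the WT differences in share (18 h minus 1 h, percentage points) were -5.06 for AP-1 and 0.323 for C/EBP, and turned sign for ISRE (-0.03), PU.1 (-0.155), CTCF (-0.187) and promoters (6.61, against -0.762), and over both genotypes NBRE passed at -0.112 and promoters turned to 3.27 from -0.146. With whole lists, WT gave 0.390 for ISRE, 3.55 for C/EBP, 0.949 for CTCF and -11.8 for promoters, and both genotypes 0.0832 for CTCF, against -0.110. Within 50 bp of the summit, WT gave -0.883 for NF-kB, 2.28 for C/EBP and -0.0704 for NBRE, and both genotypes -1.64 for AP-1, 1.51 for C/EBP and -0.000342 for ISRE. Promoters within 500 bp turned sign too, to 0.748 in WT and 0.379 over both genotypes. The cause of these movements was not tested.

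Without 1 list at a time, the WT differences ranged from -3.44 to -1.18 for AP-1, 0.175 to 0.351 for ISRE, 0.657 to 1.61 for PU.1, -0.242 to -0.115 for NBRE, -0.201 to 0.406 for CTCF and -1.59 to 0.0683 for promoters, and those of CTCF and promoters turned sign without WT 1 h replicate 1-2. The lowest and highest values of each were those without a WT 1 h list. Over both genotypes they ranged from -3.22 to -2.09 for AP-1, -1.55 to -1.33 for NF-kB, 0.00649 to 0.149 for ISRE, 2.07 to 2.39 for C/EBP, 0.494 to 0.970 for PU.1, -0.262 to 0.0417 for CTCF, -0.128 to -0.0649 for NBRE and -0.561 to 0.269 for promoters. The rank score calls ranged from 1692 to 9229 in WT and 174 to 2370 in KO, the lone or fewer lists being assumed to vary like the others. Over all recomputed values, counts included, 164 stayed within the limits set for a change, 44 moved beyond them, 14 turned sign, 14 no longer passed and 6 newly passed.

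With the replicate number as a replicate block, the KO rank score fit called 1126 sites (458 higher, 668 lower) against 1047. Deviations of KO lists with the same number correlated at 0.0187, 0.00388 and 0.0291 over 16179 sites, none above 0.1, so the numbers do not pair the lists, and not every list correlated best with its own number. WT lists at 1 and 18 h share only replicate number 3, so no block could be fitted there. Depth limits what absence means: the shallower WT 1 h list has no peak beyond rank 24389, and read counts per site were not analysed here.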
